A study of Mus musculus with 2 samples.

Results

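The mitochondrial ribosome and protein import genes were described in T-ALL cells (T-cell acute lymphoblastic leukemia) of the mouse leukemia ALL211. The members are the protein-coding genes named Mrpl or Mrps with a number (proteins of the mitochondrial ribosome), Timm or Tomm with a number (import translocases), and Tfam, Tfb2m, Polrmt, Tufm, Tsfm, Gfm1, Pmpca and Pmpcb. They were chosen by name alone, although earlier results of these data were known. Of the 27179 genes in the table, 111 fitted. They were 78 mitoribosome genes, 27 import genes (the Timm and Tomm genes with Pmpca and Pmpcb) and 6 genes of mitochondrial transcription and elongation. The leukemia carries Vav-tTA, a transactivator under a Vav promoter active in blood cells, and TRE-GFP-shIkaros, a hairpin RNA against Ikaros that is made together with GFP until doxycycline (Dox) switches both off. Leukemic recipient mice were left untreated (1 library, GFP-high cells) or given Dox for 3 days (1 library, GFP-mid cells), and T-ALL cells were sorted from their spleens. Both groups carry the same transgenes and stem from 1 primary leukemia. The design text names 2 mice per condition, and the sources used here do not say whether their RNA was pooled.

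Mitochondria keep a small genome that encodes a few core subunits of the respiratory chain, and a ribosome of their own, the mitoribosome, translates it. All mitoribosomal proteins are encoded in the nucleus, made in the cytosol and imported. Most precursors enter through the TOM complex of the outer membrane. Those with a presequence pass the TIM23 complex of the inner membrane and are trimmed in the matrix by the processing peptidase. Metabolite carriers are escorted across the intermembrane space by small Tim chaperones and inserted by the TIM22 complex. In lymphoid cells this machinery is known to grow with cell growth and division.

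With 1 library per condition there is no replicate check, and no test between conditions was possible. The 95% intervals given for each ratio cover counting error only, and may be too narrow because PCR copies of a molecule are not independent. Treatment, GFP gate and mouse differ together between the libraries and cannot be told apart. The untreated library held 16960042 counts and the Dox library 16484613, and members took 0.847% and 0.555% of them. CPM are read counts scaled to a common library size, so they are relative to the library total, and RNA per cell was not measured. Ikzf1, the gene of Ikaros, was 10.2-fold higher with Dox, from 120.5 to 1229 CPM (log2 fold of Dox over untreated 3.35), the direction of the labels. The 8 T-lineage markers summed to 5745 and 7069 CPM. Markers of other cells were higher in the Dox library. All 8 macrophage markers were at least 2-fold higher (sum 7.62 and 145 CPM), as were all 5 dendritic cell markers (1.11 and 45.8 CPM, with Clec9a and Siglech at 0 in the untreated library) and the 4 matched erythroid markers (5.98 and 38.2 CPM). The B-cell markers summed to 6.21 and 270.7 CPM, nearly all of it Cd74. Fewer cells of a type and less RNA per cell cannot be told apart in such bulk samples, and the part of these other cells in the results below was not tested.

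The members were lower in the Dox library almost throughout, by a moderate amount. Of 111, 108 passed the filter of at least 1 CPM in at least 1 library, and all 108 reached it in both. Among these, 103 had a negative log2 fold, with a median of -0.67 and quartiles of -0.94 and -0.33. The median over all 12125 genes that passed was -0.01, and 6142 of those were negative. At least 2-fold lower were 24 members (22.2%), against 13.0% of all genes. No member was at least 2-fold higher, against 13.6% of all genes. The counting interval lay wholly below equal levels for 99 members, against 40.0% of all genes, and wholly above for 1 member, Mrpl9, against 38.7%. Summed over all members, the untreated library had 8419 CPM and the Dox library 5583, a ratio of 0.663. Members are short genes (median length 1179.5 bases against 2716 over all genes). Across all genes, log2 fold and log2 length had a Pearson r of 0.072, and across the 108 members -0.0026, as descriptions. With the trend of fold with gene length removed, the members' median was -0.49 (0.01 over all genes), and 15 were at least 2-fold lower (13.9%), near the 12.2% of all genes under the same correction.

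Mitoribosome and import genes were alike in their typical shift and differed in spread. The median log2 fold was -0.66 over the 77 mitoribosome genes measured and -0.75 over the 25 import genes. At least 2-fold lower were 14 mitoribosome genes (18.2%) and 9 import genes (36.0%). With the gene length trend removed, the medians were -0.50 and -0.49, and the counts were 7 (9.09%, below the 12.2% of all genes) and 8 (32%). Without that correction, 6 of 77 mitoribosome and 9 of 25 import genes had their whole counting interval past 2-fold lower, against 8.38% of all genes. The standard deviation of the log2 folds was 0.41 across mitoribosome genes and 0.59 across import genes. The TOM and TIM23 genes had medians of -0.79 and -0.77, the small Tim chaperones -1.70 and the TIM22 genes -0.20, and genes within the TOM complex also differed widely. No test of the difference between the classes was possible.

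**Figure D1:**
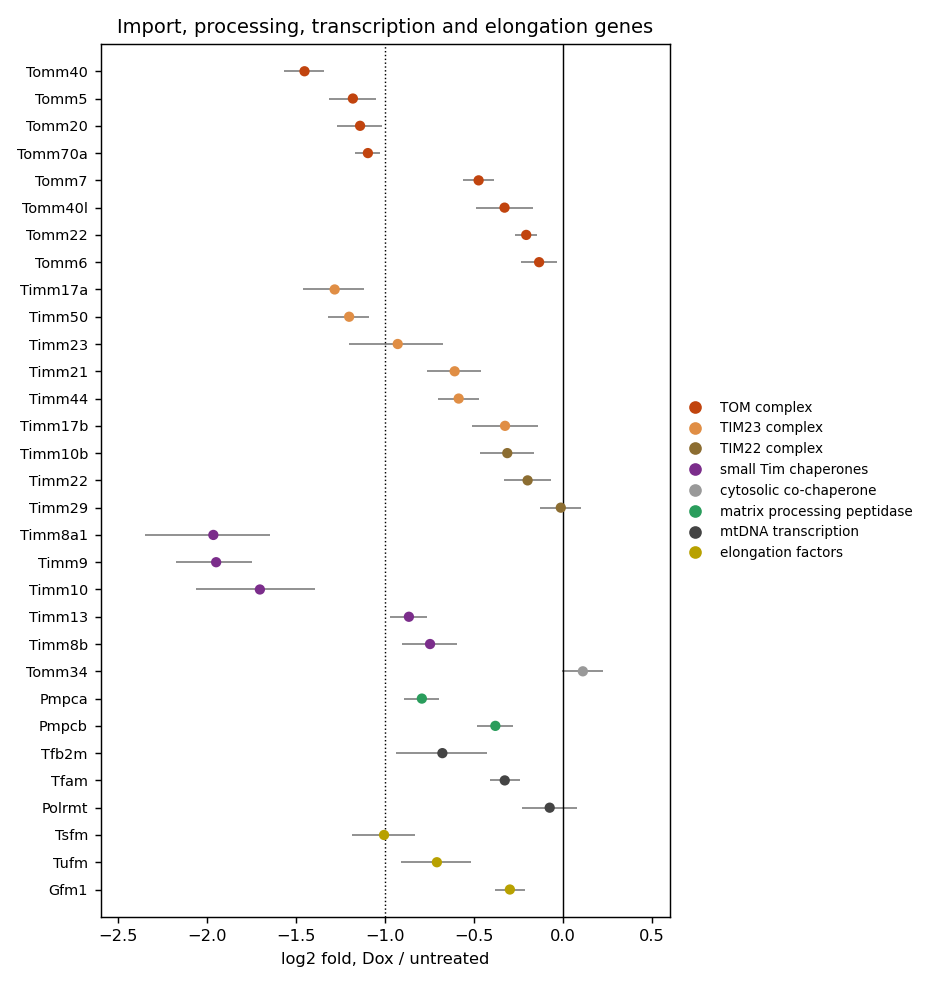
Log2 fold of the Dox over the untreated library (x axis) for each import, processing, transcription and elongation gene (rows, coloured by role), with 95% counting intervals as bars; the dotted line marks 2-fold lower. The small Tim chaperone genes Timm8a1, Timm9 and Timm10 lie farthest left, between -1.97 and -1.70, while the TIM22 genes lie between -0.31 and -0.01.

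The small Tim chaperones held the lowest import genes. They form hexamers in the intermembrane space, Timm9 with Timm10 and Timm8 proteins with Timm13, and carry hydrophobic precursors past it. Timm8a1 (Entrez 30058; GRCm38 chromosome X, 134537256 to 134541670) had 352 counts in the untreated and 85 in the Dox library, or 20.6 and 5.19 CPM, 3.97-fold lower (log2 fold -1.97, interval -2.35 to -1.64). Timm9 (Entrez 30056; chromosome 12, 71123172 to 71136708) had 920 and 227 counts, or 53.9 and 13.9 CPM, 3.89-fold lower (-1.95, interval -2.18 to -1.75). Timm10 (Entrez 30059; chromosome 2, 84827021 to 84830213) had 334 and 97 counts, or 19.6 and 5.92 CPM, 3.30-fold lower (-1.70, interval -2.07 to -1.39). These 3 stood apart from the other measured chaperones of the class. Timm13 went from 131.5 to 72.1 CPM (-0.87) and Timm8b from 54.2 to 32.2 CPM (-0.75). Timm9 and Timm10, which sit in 1 hexamer, differed by -0.24 (interval -0.63 to 0.17), a pair chosen after its values were seen. Pairs with Timm13, chosen in the same way, did not all agree. Timm8a1 minus Timm13 was -1.12 (interval -1.50 to -0.76), and Timm8b minus Timm13 was 0.12 (interval -0.07 to 0.31). Timm8a1 was lower than its paralog Timm8b by 1.24 on the log2 scale (interval of Timm8a1 minus Timm8b -1.63 to -0.86). Of the 50-base windows of the Timm8a1 transcript, 41.0% also occur in a transcript of 1 other gene, so its level is uncertain. Timm8a2 had 0 and 1 counts, at or under the floor of 3 counts (0.176 and 0.183 CPM).

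The start regions of the 5 measured small Tim genes are shown because this class held both the lowest and moderately lower members. The class was thus chosen by its folds. Each is 250 bases before to 50 after a transcript start, 5′ to 3′ on the gene's strand, from RefSeq (GRCm38.p6): Timm8a1 chrX:134541621-134541920 (minus strand), Timm9 chr12:71136626-71136925 (minus), Timm10 chr2:84826771-84827070 (plus), Timm13 chr10:80900920-80901219 (minus) and Timm8b chr9:50603651-50603950 (plus). Capitals mark matches, on either strand, to CACGTG (the E-box that Myc and related factors bind), CCGGAAG (the core of ETS factor sites) or the palindromic NRF1 motif made of CGCATGCG with a G before and a C after it; none of the 5 held AAGATGGC (YY1).
Timm8a1: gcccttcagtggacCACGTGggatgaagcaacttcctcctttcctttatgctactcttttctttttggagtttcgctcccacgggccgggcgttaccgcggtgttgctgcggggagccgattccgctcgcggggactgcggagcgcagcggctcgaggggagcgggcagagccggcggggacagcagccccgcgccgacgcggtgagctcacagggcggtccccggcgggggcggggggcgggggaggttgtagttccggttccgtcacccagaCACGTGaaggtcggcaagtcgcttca
Timm9: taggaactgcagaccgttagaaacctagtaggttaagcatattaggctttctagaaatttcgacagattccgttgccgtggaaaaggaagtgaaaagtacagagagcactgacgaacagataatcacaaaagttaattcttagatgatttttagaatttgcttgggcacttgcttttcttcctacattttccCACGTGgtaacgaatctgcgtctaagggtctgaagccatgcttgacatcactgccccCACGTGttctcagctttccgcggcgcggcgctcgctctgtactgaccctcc
Timm10: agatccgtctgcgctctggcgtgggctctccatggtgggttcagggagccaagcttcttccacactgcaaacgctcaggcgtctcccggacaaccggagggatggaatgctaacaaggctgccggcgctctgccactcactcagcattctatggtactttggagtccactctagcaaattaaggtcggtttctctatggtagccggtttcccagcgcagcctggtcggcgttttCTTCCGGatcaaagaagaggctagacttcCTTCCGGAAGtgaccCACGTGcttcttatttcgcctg
Timm13: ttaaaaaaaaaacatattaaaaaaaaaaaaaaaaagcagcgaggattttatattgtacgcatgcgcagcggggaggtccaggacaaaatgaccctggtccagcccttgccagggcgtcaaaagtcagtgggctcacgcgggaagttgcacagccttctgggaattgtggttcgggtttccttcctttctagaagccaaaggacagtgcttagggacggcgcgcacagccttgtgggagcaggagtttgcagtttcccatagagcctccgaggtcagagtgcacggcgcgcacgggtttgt
Timm8b: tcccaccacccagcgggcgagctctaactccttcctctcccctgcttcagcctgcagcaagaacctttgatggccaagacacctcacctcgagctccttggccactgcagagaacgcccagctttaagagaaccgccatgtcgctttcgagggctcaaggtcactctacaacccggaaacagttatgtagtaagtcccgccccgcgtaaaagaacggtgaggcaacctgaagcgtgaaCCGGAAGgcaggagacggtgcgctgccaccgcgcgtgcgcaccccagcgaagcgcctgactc
CACGTG occurs in the windows of Timm8a1 (first bases at -236 and 25 from the start), Timm9 (-58 and -1) and Timm10 (29), and not in those of Timm13 and Timm8b. Positions count from 1 at the start base, with -1 just before it. Timm10 also holds 3 matches to the ETS core, of which a pair overlaps, and Timm8b holds 1.

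Over all members, 99 had a start region in the RefSeq table, 107 regions in all. CACGTG was in 12 of these regions (11.2%), against 7.15% of all 32851 regions of the same length and 8.02% of those of protein-coding genes in the table. Of the 12, 3 are overlapping windows of Mrpl2, and by gene it was in 10 of 99 members (10.1%), against 9.17% of protein-coding genes. It was in 5 of the 21 members at least 2-fold lower that had a region (Mrpl2, Timm8a1, Timm9, Timm10 and Tomm20) and in 3 of the 75 other measured members. The regions of Mrpl12 and Mrpl17, the lowest genes of the large subunit, did not hold it. The ETS core was in 42 regions (39.3%), against 8.86% of all and 11.8% of protein-coding regions. By gene the ETS core was in 41 of 99 members (41.4%, against 13.3% of protein-coding genes), 5 of the 21 lower members and 35 of the 75 others. AAGATGGC was in 13 regions (12.1%, against 2.75% of all and 3.11% of protein-coding regions), 12 of them of mitoribosome genes. The NRF1 motif was in 3 (2.80%, against 0.971% of all and 1.375% of protein-coding regions), those of Mrpl9, Mrpl32 and Mrpl39. A match describes letters in a window and is neither a bound site nor a cause, and regions differ in base composition.

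In the TOM complex, 4 of 8 measured genes were at least 2-fold lower, against 13.0% of all genes. Before any gene length correction, these 4 lay apart from the other 4. With the gene length trend removed, 3 of the 8 were at least 2-fold lower (37.5%, against 12.2% of all genes) and 7 were negative. Tomm40, the channel of the outer membrane (Entrez 53333; chromosome 7, 19701313 to 19715442), had 2529 and 885 counts, or 148 and 54.0 CPM, 2.74-fold lower (log2 fold -1.45, interval -1.57 to -1.34). Tomm20 and Tomm70a, the receptors that recognise presequences and internal signals, went from 99.4 to 45.0 CPM (-1.14) and from 307 to 144 CPM (-1.10). Tomm5, a small subunit of the channel, went from 92.9 to 40.9 CPM (-1.18). The other small subunits, Tomm7 (161 and 116 CPM) and Tomm6 (103 and 94.0 CPM), had log2 folds of -0.47 and -0.13. Tomm22, the central receptor that organises the complex, was at 284 and 246 CPM (-0.21, interval -0.27 to -0.15). Subunits of 1 complex thus differed by far more than counting error. All exonic bases of the Tomm6 transcript overlap exons of other genes, so its counts are uncertain. Tomm40l, a paralog of Tomm40, was at 42.6 and 33.9 CPM, and Tomm40 minus Tomm40l was -1.13 (interval -1.32 to -0.93), although 70.1% of the exonic bases of Tomm40l overlap Nr1i3. Tomm34, a cytosolic co-chaperone outside the complex, was the import gene with the highest log2 fold, 0.11 (70.7 and 76.4 CPM, interval -0.00 to 0.23). Tomm20l, a second Tomm20 gene, had 0 counts in both libraries.

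The TIM23 genes were lower to different degrees, and the TIM22 genes least of the import complexes. Timm17a and Timm17b are alternative subunits of the TIM23 channel. Timm17a went from 58.6 to 24.0 CPM (-1.28), and Timm17b at 32.2 and 25.6 CPM (-0.33). The log2 fold of Timm17a minus that of Timm17b was -0.96 (interval -1.22 to -0.71). Per length, Timm17a was 116.7 and 48.5 and Timm17b 35.8 and 29.0, in counts per gene length scaled to a common total over all genes. Timm17a was the higher paralog in both libraries, by a smaller margin in the Dox library. Timm50, the receptor that hands precursors to the channel, went from 120.0 to 52.1 CPM (-1.20, interval -1.32 to -1.09). Timm23, the channel subunit itself, had 361 and 181 counts (-0.93), and 90.9% of its transcript windows occur in other genes. Timm44, which docks the import motor, was at 95.8 and 63.8 CPM (-0.59), and Timm21, which links both membranes, at 54.2 and 35.5 CPM (-0.61). In the TIM22 complex, the pore gene Timm22 was at 60.0 and 52.3 CPM (-0.20), Timm10b at 47.3 and 38.0 CPM (-0.31) and Timm29 at 73.9 and 73.3 CPM (-0.01). The sign of Timm29 flips under upper quartile scaling. Pmpca and Pmpcb, the subunits of the peptidase that removes presequences, went from 138 to 79.5 CPM (-0.79) and from 111 to 85.1 CPM (-0.38).

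**Figure D2:**
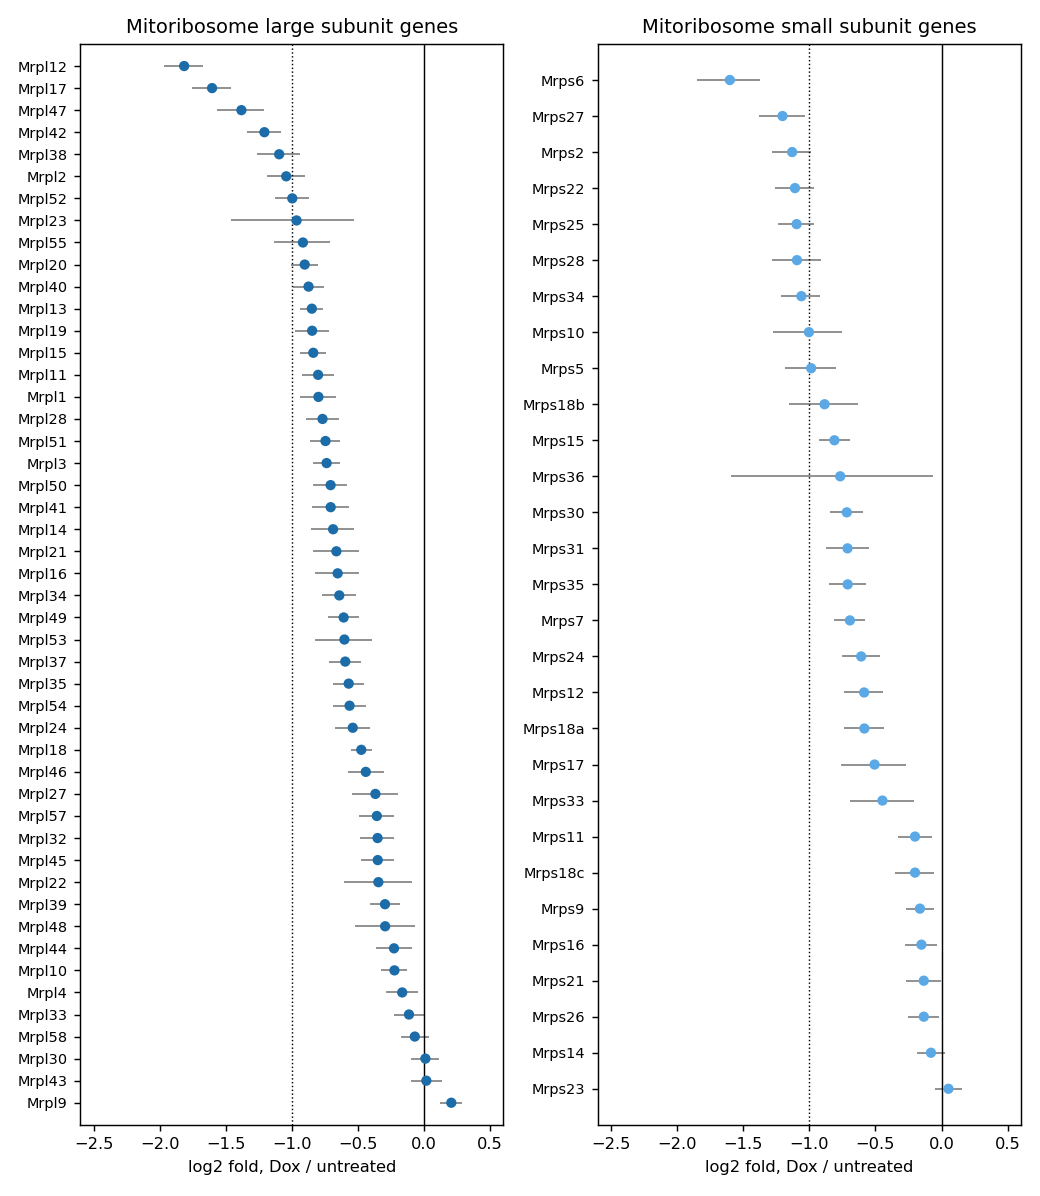
Log2 fold of the Dox over the untreated library (x axis) for each measured gene of the large (left) and small (right) mitoribosome subunit, sorted, with 95% counting intervals; the dotted line marks 2-fold lower. Most genes lie between the lines, with Mrpl12 at -1.82 and Mrps6 at -1.60 lowest and Mrpl9 at 0.21 highest.

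Both mitoribosome subunits were lower by similar amounts. Of the large subunit, 6 of 48 measured genes were at least 2-fold lower (12.5%, near the 13.0% of all genes), 45 were negative and the median log2 fold was -0.65. Of the small subunit, 8 of 29 were at least 2-fold lower (27.6%), 28 were negative and the median was -0.71. With the gene length trend removed, these counts were 3 (6.25%) and 4 (13.8%), against 12.2% of all genes, and the medians -0.46 and -0.52. Genes whose proteins have a counterpart in bacterial ribosomes and genes specific to mitochondria, a division made after the values were seen, both had a median of -0.66 (8 of 47 and 6 of 30 at least 2-fold lower). Subunits are those of the gene names, although the proteins of Mrps18a and Mrps30 sit in the large subunit.

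In the large subunit, Mrpl12 was lowest (Entrez 56282; chromosome 11, 120484637 to 120488754). Its protein forms the stalk that recruits translation factors. It had 1821 counts in the untreated and 495 in the Dox library, or 106.7 and 30.2 CPM, 3.53-fold lower (log2 fold -1.82, interval -1.97 to -1.68). Mrpl10, which anchors that stalk, was at 110.4 and 94.5 CPM, and Mrpl10 minus Mrpl12 was 1.59 (interval 1.42 to 1.77), a pair also chosen after its values were seen. Mrpl17 went from 91.6 to 30.0 CPM (-1.60), Mrpl47 from 55.4 to 21.2 CPM (-1.38) and Mrpl42 from 97.1 to 41.9 CPM (-1.21). Mrpl38, at 58.8 and 27.4 CPM (-1.10), and Mrpl2, a protein of the subunit's core, at 74.9 and 36.3 CPM (-1.04), were the others past 2-fold. At the opposite end, Mrpl9 was higher in the Dox library, at 128 and 147 CPM (0.21, interval 0.12 to 0.29). Mrpl43 (69.8 and 70.6 CPM, 0.02), Mrpl30 (87.8 and 88.4 CPM, 0.01) and Mrpl58 (86.1 and 82.0 CPM, -0.07), which kept a peptidyl-tRNA hydrolase activity, had intervals that include equal levels. The signs of Mrpl43 and Mrpl30 flip under total-count and DESeq2 scaling. Mrpl52 lay just inside 2-fold at 87.8 and 43.9 CPM. Mrpl36 had 0 and 2 counts although none of its transcript windows or exons are shared with another gene in the annotation used, and no fold is given.

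In the small subunit, Mrps6 was lowest, from 36.4 to 11.9 CPM (log2 fold -1.60, interval -1.85 to -1.38). Mrps27, which has RNA-binding repeats, went from 54.0 to 23.4 CPM (-1.20) and Mrps2 from 71.5 to 32.6 CPM (-1.13). Mrps22 was at 69.9 and 32.4 CPM (-1.11), Mrps25 at 84.4 and 39.4 CPM (-1.10) and Mrps28 at 46.3 and 21.6 CPM (-1.09). Of these 6, Mrps6, Mrps27 and Mrps25 overlap exons of other genes over 36.1%, 22.6% and 75.6% of their exonic bases, and reads of such stretches cannot be assigned without strand. Mrps34 (70.2 and 33.6 CPM) and Mrps10 (21.9 and 10.9 CPM), which also share sequence with other genes, were the remaining genes past 2-fold. At the opposite end, Mrps23 was at 95.6 and 99.1 CPM (0.05), Mrps14 at 92.9 and 87.9 CPM (-0.08), Mrps26 at 76.2 and 69.4 CPM (-0.13) and Mrps21 at 58.4 and 53.2 CPM (-0.13). The Mrps18 paralogs, which belong to 1 family, differed. Mrps18a minus Mrps18c was -0.38 (interval -0.60 to -0.17) and Mrps18b minus Mrps18c -0.69 (interval -0.995 to -0.388). For Mrps18a minus Mrps18b the value was 0.31 (interval 0.00 to 0.61). Of these, Mrps18b and Mrps18c share sequence or exons with other genes. Mrps36, a protein also assigned to the ketoglutarate dehydrogenase complex, had only 44 and 24 counts.

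The 6 factors that act on the mitochondrial genome and on the mitoribosome were all negative, from -1.01 for Tsfm to -0.07 for Polrmt, with a median of -0.50. Tfam, which packages the genome and starts its transcription, was at 154 and 123 CPM (log2 fold -0.33, interval -0.41 to -0.24). Polrmt, the RNA polymerase, was at 42.2 and 40.1 CPM (-0.07, interval -0.23 to 0.08), so its difference lay within counting error. Tfb2m, the initiation factor that melts the promoter, had 343 and 205 counts (-0.68). Among elongation factors, Tsfm, which recharges Tufm with GTP, went from 47.6 to 23.6 CPM (-1.01), just past 2-fold and under it with upper quartile scaling. Tufm, which brings tRNAs to the mitoribosome, was at 33.8 and 20.6 CPM (-0.71), with 68.2% of its transcript windows in 1 other gene. Gfm1, the translocation factor, was at 159 and 129 CPM (-0.30).

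Levels per length ordered the members in nearly the same way in both libraries. Across the 77 mitoribosome genes, log2 levels per length of the libraries had a Pearson r of 0.95 (Spearman 0.93), and across the 25 import genes 0.89 (0.90), as a description across genes that share gene lengths and libraries. The deposited gene length includes long untranslated exons of some genes, which lowers this level. Tomm22 was the most abundant member, at 507 in the untreated and 446 in the Dox library. The next highest in the untreated library were Mrpl13 (428 and 241), Mrpl52 (389 and 197) and Mrpl20 (383 and 207). The lowest measured member was Mrps36 (6.58 and 3.79). The median level of mitoribosome genes was 105.1 and 69.2, and that of import genes 88.1 and 60.1. Proteins of 1 particle thus came from transcripts whose measured levels spanned 22.8 to 428 in the large subunit in the untreated library. Log2 fold and log2 mean level per length had a Pearson r of 0.32 across the mitoribosome genes and 0.20 across the import genes. Across all genes that passed the filter it was -0.0997, again as a description.

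**Figure D3:**
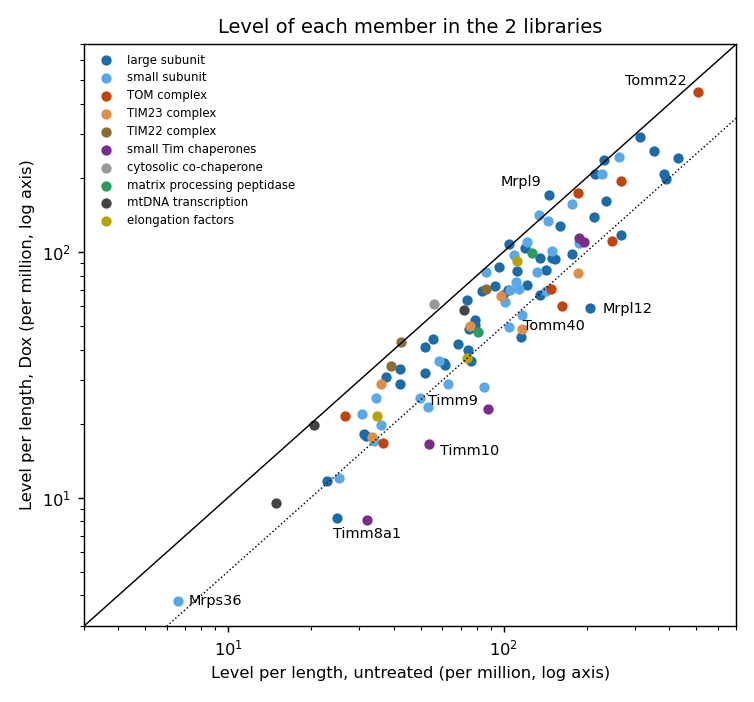
Level per length (counts per gene length, scaled to a common total) of each measured member in the untreated (x axis) and Dox library (y axis), both log axes, coloured by role. The solid line marks equal levels and the dotted line 2-fold lower; Tomm22 is the highest, at 507 and 446, and Timm9, Timm10, Timm8a1, Tomm40 and Mrpl12 lie below the dotted line.

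Genes of the same pathways outside the naming rule mostly had negative log2 folds. Their counts past 2-fold compare with 13.0% of all genes lower and 13.6% higher, and several lie near or below those shares. Of 5 further mitoribosome proteins, all were negative and 2 at least 2-fold lower (40.0%), Chchd1 (-1.09) and Ptcd3 (-1.01). Aurkaip1 was at -0.35 and Dap3 at -0.03. With the gene length trend removed, 0 of these 5 were at least 2-fold lower, against 12.2% of all genes. Of 25 genes of mitoribosome assembly and rRNA modification, 5 were at least 2-fold lower and 1 higher (20% and 4%, median -0.51). Tfb1m, the methyltransferase of the small mitochondrial rRNA, went from 14.6 to 4.34 CPM (-1.73) and the assembly factor Rcc1l from 51.4 to 15.5 CPM (-1.72), while Nsun4 was at 0.30 and Mettl17 at 0.22. The gene counted as higher, Gtpbp10, had no count without Dox and 44 counts with it. With the floor of 3 counts in place of 0 it was 15.3-fold higher, and the counting interval of its log2 fold began at 3.58. Shared sequence was not measured for Gtpbp10, and it was named after its values were seen. Of 11 translation factors, 1 was at least 2-fold lower (9.09%), Lrpprc (-1.27), which stabilises mitochondrial mRNAs, followed by its partner Slirp (-0.97). Their median was -0.23, with Mtfmt at 0.06 and the initiation factor Mtif3 at 0.57. Of 14 genes of mtDNA upkeep and RNA processing, 3 were at least 2-fold lower (21.4%, median -0.82). Among them were the topoisomerase gene Top1mt (12.0 and 1.34 CPM, -3.04) and the helicase gene Twnk (-1.33). The polymerase subunits Polg and Polg2 were at 0.20 and 0.34. With the gene length trend removed, 2 of these 14 were at least 2-fold lower (14.3%, near the 12.2% of all genes).

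Of 20 other import genes measured, 19 were negative, with a median of -0.69 and quartiles of -0.83 and -0.38. At least 2-fold lower were 3 (15.0%), near the share of all genes. With the gene length trend removed, 2 were at least 2-fold lower (10%, against 12.2% of all genes) and 1 higher (5%, against 13.7%). Chchd4, the oxidoreductase that folds small Tim proteins in the intermembrane space, went from 75.5 to 13.6 CPM (-2.47, interval -2.69 to -2.27). Hspa9, the motor chaperone that pulls precursors through TIM23, went from 814 to 194 CPM (-2.07). At the other end were Oxa1l, which inserts proteins into the inner membrane from the matrix side (-0.08), and the cochaperone gene Dnajc15 (84.4 and 165 CPM, 0.96). Of 13 proteases and chaperones, 6 were at least 2-fold lower (46.2%, median -0.93), and 5 with the gene length trend removed (38.5%). The chaperonin genes Hspd1 and Hspe1 went from 928 to 149 CPM (-2.63) and from 211 to 52.9 CPM, and the protease genes Yme1l1 and Spg7 had log2 folds of 0.01 and 0.25.

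The 13 proteins encoded in mitochondria, which the mitoribosome makes, went the opposite way at the RNA level. All 13 had a positive log2 fold under 1 (median 0.53, or 0.74 with the gene length trend removed, where 1 passed 2-fold, 7.69% against 13.7% of all genes), from ND1 (0.04) and ND2 (0.22) to ND6 (0.68) and ND4L (0.73). Together they went from 20936 to 28708 CPM. Nuclear subunits of the respiratory chain and ATP synthase had a median of -0.33, with 3 of 79 at least 2-fold lower (3.80%), and cytosolic ribosomal proteins -0.58, with 10 of 80 (12.5%). With the gene length trend removed those medians were -0.16 and -0.33, against -0.50 for mitoribosome genes. Of 9 regulators measured, 3 were at least 2-fold lower, and the median was -0.03. Myc went from 266 to 18.9 CPM (-3.80), and Pprc1, a coactivator of nuclear genes for mitochondria, from 1544 to 294 counts (-2.33). The highest log2 folds were those of the factor genes Gabpa (0.18) and Yy1 (0.25).

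**Figure D4:**
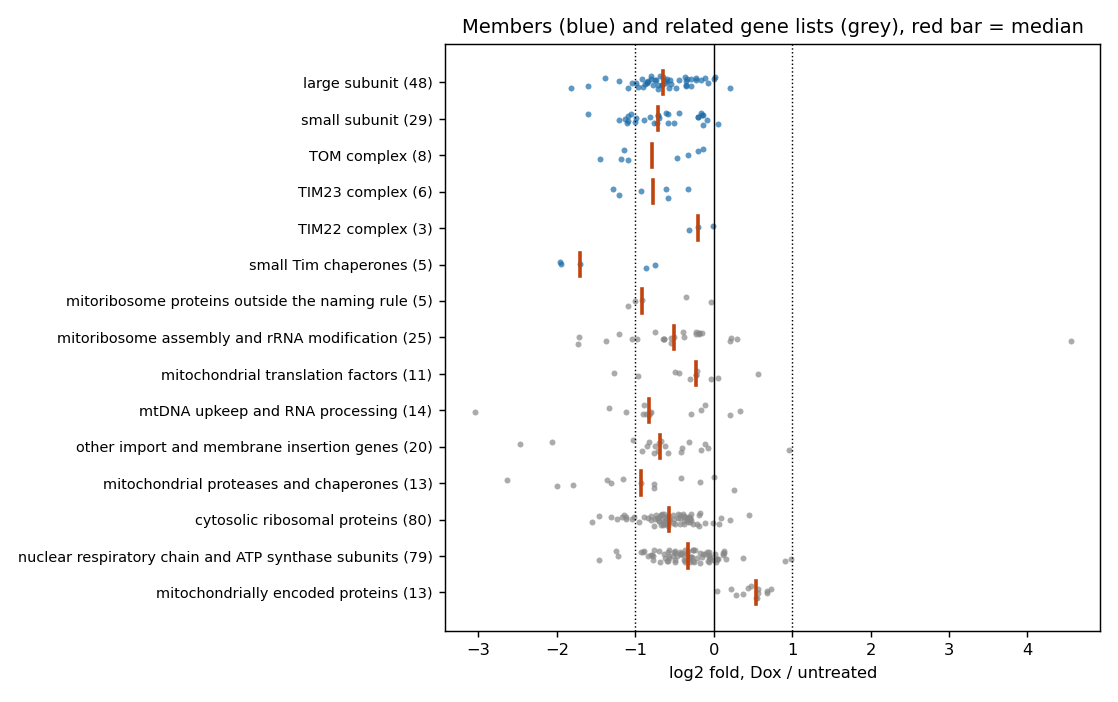
Log2 fold of the Dox over the untreated library (x axis) for members by complex (blue) and related lists (grey); each point is a gene, red bars are medians, dotted lines mark 2-fold, and numbers in brackets count measured genes. Medians run from -1.70 for small Tim chaperones to 0.53 for mitochondrially encoded proteins; the point at 4.55 is Gtpbp10, which had 0 counts in the untreated library.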

How the data were processed

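RNA was sequenced from sorted ALL211 cells, 1 library per condition. The authors deposited raw read counts per gene by Entrez identifier, with a gene length column. The submitters' processing notes name featureCounts, CASAVA 1.8.2 and mm10. An aligner, an annotation and a strand setting are not given in the sources used. Of 27179 genes, 25275 received a symbol from RefSeq GRCm38.p6; the 1904 others held 1.20% and 0.977% of counts and stayed in the totals. Counts were scaled with TMM factors of edgeR 4.0.16 (R 4.3.3). Log2 folds use a prior count of 2, and CPM and plain ratios none. The filter kept genes that reached 1 CPM in either library. Intervals are exact Clopper-Pearson 95% intervals of the ratio of counts, and those of paralog differences are exact conditional intervals of the odds ratio. Totals of 16960042 and 16484613 counts put 3 counts at 0.176 and 0.183 CPM.

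Shared sequence was measured in GENCODE M21 as the percent of 50-base windows of the longest coding transcript found in other genes' transcripts, and overlap as the percent of its exonic bases in other genes' exons. Both were read as uncertain above 20%.

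The members and lists were chosen with earlier results of these data known. Every member could be named; of each mitoribosome subunit the 6 lowest and 4 highest log2 folds at 5 CPM or more, and of each related list the 2 lowest and 2 highest. The bacterial counterpart division, some gene pairs and Gtpbp10 were added after the values were seen. Alternatives were other scalings (total counts, DESeq2 1.42.0, upper quartile), prior counts of 0.5 and 5, other filters and thresholds, a lowess gene length trend (fraction 0.3), other library totals and, added later, leaving out members with shared sequence. The level of 1 marker gene is not reported here. The steps were tested on simulated counts. Python 3.11.15, scipy 1.17.1, statsmodels 0.14.6 and matplotlib 3.10.9 were used.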

Additional observations from a re-analysis of the deposited data

How the results depend on the processing

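The medians of all members, mitoribosome and import genes stayed negative under every scaling, prior count, filter and library total tried. Removing the gene length trend moved them to -0.49, -0.50 and -0.49, reversed the small difference of the mitoribosome and import medians from 0.083 to -0.015, and left 15 members and 7 mitoribosome genes at least 2-fold lower; the cause was not tested. At 4-fold, 0 members, 0 mitoribosome and 0 import genes were lower, and at 1.5-fold 64, 46 and 15. Shares of all genes at 4-fold and 1.5-fold are not given here, so these counts have no background to compare with. With the counting interval wholly beyond 2-fold, 15 of 108 members were lower, against 8.38% of all genes. These were 6 of 77 mitoribosome genes and 9 of 25 import genes. Without a filter on low counts, 1 member passed 2-fold higher, Mrpl36, on 0 and 2 counts. Without the 25 members that share sequence or exons, 9 of 59 mitoribosome genes were at least 2-fold lower (15.3%). With those members the share was 18.2%, and that of all genes was 13.0%. Of import genes, 8 of 20 were at least 2-fold lower (40.0%), against 36.0% with those members. Across scalings, Mrpl30, Mrpl43 and Timm29 changed sign, and Mrpl52, Mrps5, Mrps10 and Tsfm crossed 2-fold. No paired analysis was possible because each condition has 1 library.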

Other observations

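Members that share sequence or exons with other genes had lower measured levels. The 25 such members had a median level per length of 42.0 in the untreated and 25.5 in the Dox library, against 111 and 69.6 for the 83 other measured members. Their median log2 folds were -0.77 and -0.64. Examples are Tufm, at 34.7 in the untreated library beside 73.6 for its exchange factor Tsfm, and Timm23, at 33.2 beside 186 for Timm50. Not all such members were low: Mrpl13, at 428 in the untreated library, and Mrpl33, at 313, were among the highest. The sources used here do not say how reads with several alignments were treated, and their part in these levels was not tested. The low counts of Mrpl36, at 0 and 2, go with no shared window and no overlapping exon in the annotation used.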
